A study of Mus musculus with 10 samples.

Results

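Glutamate that neurons release is taken up by astroglia and turned into glutamine, and 8 genes of this route were followed in single Bergmann glia of the mouse cerebellum at P6 and P30. They encode the plasma membrane glutamate transporters Slc1a3 and Slc1a2, glutamine synthetase (Glul), glutamate dehydrogenase (Glud1), the cytosolic and mitochondrial aspartate aminotransferases (Got1 and Got2) and the glutamine transporters Slc38a1 and Slc38a3. The genes were listed by name, although earlier results of these data were known when the list was made. Every probe set with a value in all 10 cells that the array annotation pairs with 1 of these genes alone was used. This gave 24 probe sets for the 8 genes, out of 33964 probe sets for 17919 genes. All 25 probe sets paired with a member had complete values, and 1 of them was left out because it is also paired with Gm13872.

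Bergmann glia are unipolar astroglia whose somata lie beside the Purkinje neurons and whose fibres guide migrating granule neurons in the young cerebellum and ensheath Purkinje cell synapses in the adult. Their membranes are rich in the transporter GLAST, the product of Slc1a3, which together with the Slc1a2 product clears glutamate from the synapses of parallel and climbing fibres. Inside the cell, glutamine synthetase joins glutamate and ammonia to glutamine, glutamate dehydrogenase and the aminotransferases pass the carbon of glutamate on to the citric acid cycle or return it, and SLC38 transporters carry glutamine across the membrane.

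All cells came from the mid-sagittal cerebellum of the GFAP-GFP reporter line, in which the Gfap promoter drives GFP, and they comprised 5 cells of age P6 and 5 of age P30. Each cell was picked by its fluorescence and shape, its cDNA was amplified by PCR, and it was hybridised to 1 Affymetrix Mouse Genome 430 2.0 array. The study admitted only cDNA in which PCR and blots had found glial transcripts, Slc1a3 among them, and no neuronal ones. Detection of Slc1a3 was therefore a condition of entry and is no result. No animal is named for any cell, so an age stands for 1 sample only, p-values were not computed, and every SD describes the spread over cells.

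Each deposited value is a ratio within its own probe set. A ratio of 1 was the median of the P6 cells in 19 of the 24 probe sets and carries no level, so ratios of different probe sets or genes were not ranked by abundance and the astroglial identity of the cells could not be checked from them. Differences are given as the mean log2 ratio at P6 minus that at P30, folds are ratios of geometric means, and the ages are called apart where all 5 cells of 1 age lay above all 5 of the other. The pooled SD is the spread of log2 ratios between cells of the same age.

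Cells with the replicate number 5 stood apart at both ages. Against the other 4 cells of its age, P30 replicate 5 had higher ratios for 10 of 10 markers of endothelial cells and pericytes, with a median log2 deviation of 4.35, and a lower astroglial marker list, with a median of -0.80 over 21 genes. Granule and Purkinje neuron lists had medians of 1.29 and 1.02 in that cell, but only 4 of 7 and 3 of 6 of their genes were higher. In P6 replicate 5 the median deviation was 2.44 over 12 neuronal markers, 8 of which were higher, and -0.49 over the astroglial list. In the other 8 cells the neuronal list lay between -0.70 and 0.19 and the endothelial list between -1.20 and 0.23, and the largest deviation of any other list was 0.79 (microglia, P6 replicate 3), apart from a Purkinje list at -1.30 in P30 replicate 3. The 24 member probe sets had a median deviation of -0.47 in P6 replicate 5 and of -0.83 in P30 replicate 5, beside -0.20 and -0.35 over all probe sets. Array medians were 0.91 and 0.726 in these cells and 0.913 to 1 in the other 8. The part of these cells in the age differences was not tested, and values without them are given where they move a result.

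Of the 24 probe sets, 2 were over 3-fold higher at P30, where 6.91% of all probe sets were: 1 for Slc1a3 and 1 for Slc38a1. A further 2 were over 3-fold higher at P6, for Got1 and Got2, beside 12.3% of all probe sets. In none of the 24 were the ages apart, beside 3.17% of all probe sets. The mean was higher at P30 in 15 of 24, beside 48.0% of all, and the median difference was -0.22 (range -4.23 to 3.15) beside 0.05 over all probe sets. Between the ages, the astroglial and oligodendrocyte marker lists leaned the same way. Of their genes, 19 of 21 (median difference -0.64) and 10 of 11 (median -0.59) had a higher mean at P30. All 5 inhibitory interneuron genes did too (median -0.36). Other lists were mixed, with 6 of 11 microglial and 6 of 10 endothelial and pericyte genes higher at P30. So were 3 of 6 Purkinje, 5 of 12 neuronal and 3 of 7 granule neuron genes. The part of any list in the members' lean was not tested. At the level of genes, taken as the mean over the probe sets of a gene, Slc38a1 was over 3-fold higher at P30 (4.93% of all genes) and Got1 at P6 (9.39%), and the ages were apart in 1 of 8 genes, Slc38a1, beside 3.54% of all genes. Slc38a1 lost that separation under scaling to the hybridisation controls and without its _s_at probe set. Both shares of members over 3-fold are thus near those of all probe sets or under them.

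**Figure D1:**
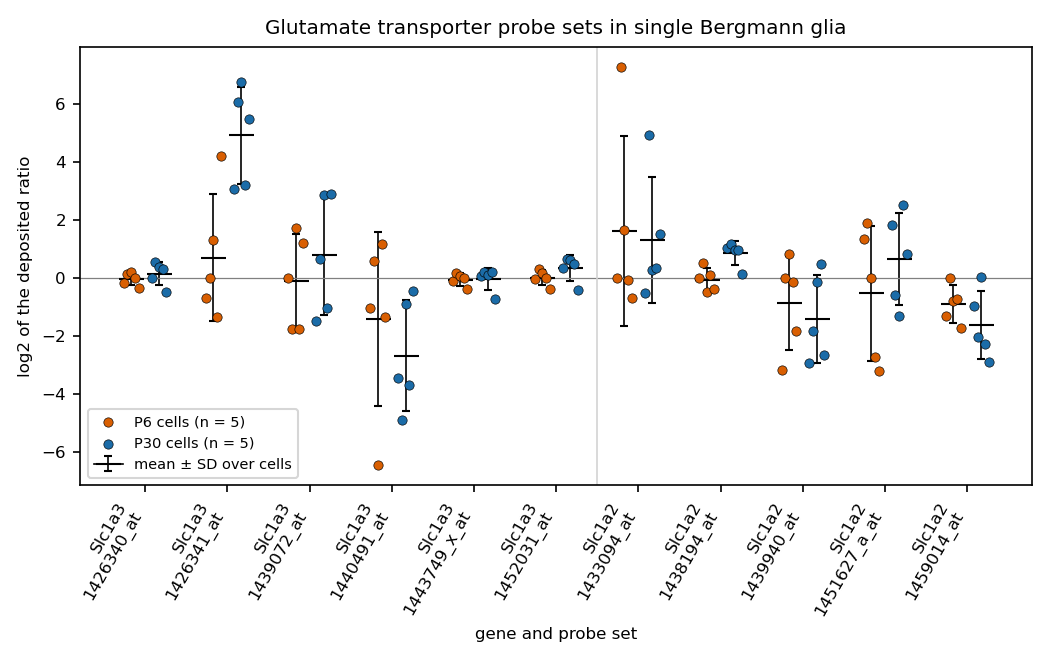
Each point is 1 cell (P6 orange, P30 blue, 5 per age), and the vertical axis is the log2 of the deposited ratio for the 6 probe sets of Slc1a3 and the 5 of Slc1a2, with bars for mean ± SD. Probe set 1426341_at of Slc1a3 was 18.8-fold higher at P30 with 1 P6 cell inside the P30 range, while 1426340_at, 1443749_x_at and 1452031_at of the same gene stayed within a narrow band at both ages.

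Slc1a3, the gene of GLAST, gave unlike pictures from its 6 probe sets. In 3 of them (1426340_at, 1443749_x_at and 1452031_at) the cells of both ages lay close together and the difference between ages was between -0.02 and -0.33, which is at most 1.26-fold. In another, 1426341_at, the P30 mean was 18.8-fold the P6 mean. The last pair varied widely between cells, with a difference of -0.90 in 1439072_at but 1.27 in 1440491_at.

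For Slc1a3 1426341_at the ratios were 0.618, 1, 2.5, 0.396 and 18.6 in P6 replicates 1 to 5. In P30 replicates 1 to 5 they were 8.54, 67.6, 109.9, 9.38 and 45.1. The ages overlapped through a single cell, P6 replicate 5, which lay above P30 replicates 1 and 4 and below the other 3 adult cells. The mean log2 ratio was 0.70 ± 2.20 in the P6 cells and 4.94 ± 1.68 in the P30 cells (SD, n = 5 of each). Without P6 replicate 5 the ages were apart and the difference was -5.11, and over the alternatives tried it ranged from -5.49 to -3.38, so it stayed over 3-fold in each of them.

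The narrow probe sets of Slc1a3 looked different. For 1452031_at the P6 ratios were 0.972, 1.24, 1.13, 1 and 0.779, and the P30 ratios were 1.29, 1.57, 1.56, 1.41 and 0.748. The first 4 adult cells lay above every P6 cell, and P30 replicate 5 lay below all 9 other cells. The means were 0.02 ± 0.25 and 0.35 ± 0.44 (log2, SD, n = 5 cells each), a difference of -0.33. For 1426340_at the ratios ran from 0.791 to 1.15 at P6 and from 0.722 to 1.46 at P30, and for 1443749_x_at, an identifier that Affymetrix gives to probe sets open to cross-hybridisation, from 0.765 to 1.12 and from 0.612 to 1.17. P30 replicates 2, 3 and 4 lay above every P6 cell in 1426340_at, and P30 replicates 2 and 4 did in 1443749_x_at. In both, P30 replicate 5 lay below every P6 cell. These narrow differences did not keep their direction under every scaling: with the arrays scaled to the hybridisation controls, the difference of 1426340_at was 0.09 and that of 1443749_x_at was 0.25. Under that scaling every P6 cell lay above every P30 cell in 1443749_x_at.

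In the wide pair, Slc1a3 1439072_at ranged from 0.296 to 3.31 at P6 and from 0.361 to 7.52 at P30, with its highest ratios in P30 replicates 3 and 5. Probe set 1440491_at ranged from 0.0114 to 2.24 at P6 and from 0.0333 to 0.739 at P30, and its lowest ratio was in P6 replicate 3. Neither age stood apart in either of them. The difference of 1440491_at was 2.53 without P6 replicate 3, past 3-fold, and that of 1439072_at was -0.37 without P30 replicate 5. Taken over all 6 probe sets, Slc1a3 had a log2 mean of -0.15 ± 0.39 in P6 cells and 0.59 ± 0.78 in P30 cells (SD, 5 cells each), a difference of -0.73, and with the median over its probe sets in place of the mean the difference was -0.22.

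Slc1a2, the gene of the glutamate transporter that dominates in forebrain astrocytes, had nearly equal means at both ages as a gene, with a difference of -0.10 and a pooled SD of 0.99 (log2 means -0.14 ± 1.33 in P6 cells and -0.04 ± 0.43 in P30 cells, SD, 5 cells each). Its gene value changed sign with the choice of cells and scaling, from -0.62 without P6 replicate 2 to 0.40 with arithmetic means. The probe set left out as shared with another gene had a difference of -2.39, past 3-fold and higher at P30. Its ratios ran from 0.595 to 10.5 at P6 and from 2.02 to 56.05 at P30, so the ages overlapped. With that probe set added, the gene difference of Slc1a2 was -0.48. Its signal cannot be assigned to Slc1a2 alone. Of the 5 Slc1a2 probe sets used, 1 had a narrow spread. In that one, 1438194_at, the P6 ratios were 1, 1.42, 0.721, 1.07 and 0.77, and the P30 ratios were 2.07, 2.25, 1.98, 1.96 and 1.11. Of the adult cells, 4 lay above every P6 cell, and P30 replicate 5 lay within the P6 range. The P30 mean was 1.88-fold the P6 mean, and the difference of -0.91 was more than the pooled SD of 0.40. The ages were apart in this probe set after median scaling of the arrays, after scaling to the hybridisation controls, and without P6 replicate 2 or P30 replicate 5.

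The other Slc1a2 probe sets varied more widely between cells. In 1433094_at, P6 replicate 2 had a ratio of 157 and P30 replicate 2 of 31.1, while the other 8 cells lay between 0.619 and 3.2. The difference of 0.32 in this probe set was -1.09 without P6 replicate 2. In 1451627_a_at the ratios ran from 0.108 to 3.73 at P6 and from 0.407 to 5.81 at P30, and the difference of -1.19 was -0.52 without P6 replicate 5. Probe sets 1439940_at and 1459014_at were higher at P6 by 0.56 and 0.72 on the log2 scale, each less than its pooled SD (1.57 and 0.94). In all 4 the ages overlapped.

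**Figure D2:**
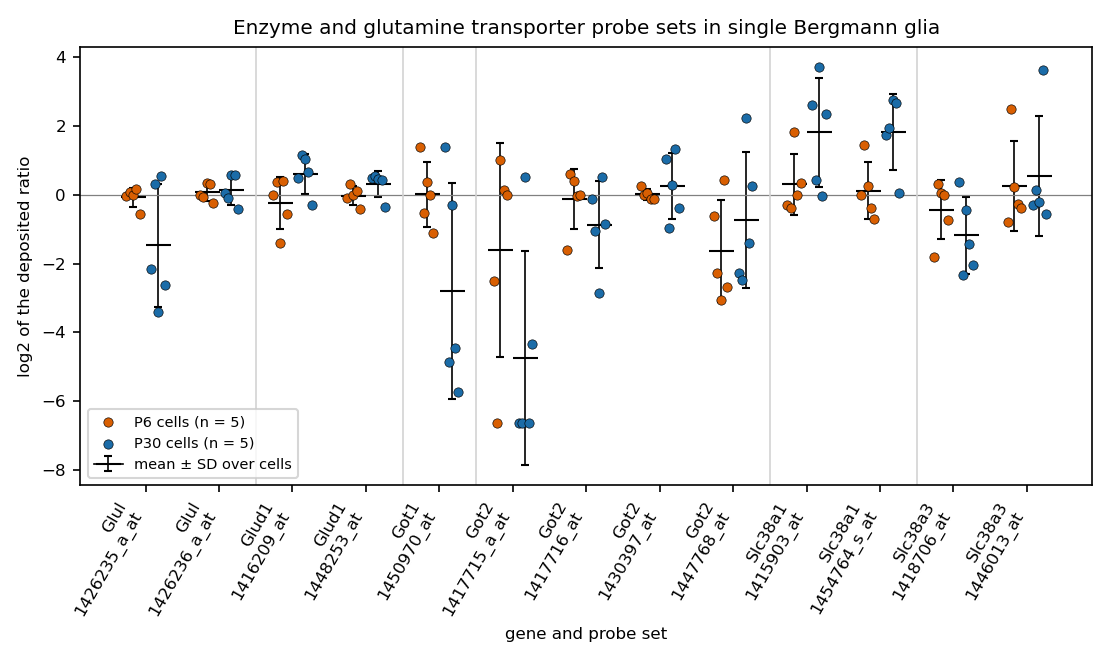
Each point is 1 cell (P6 orange, P30 blue, 5 per age), and the vertical axis is the log2 of the deposited ratio for the 13 probe sets of Glul, Glud1, Got1, Got2, Slc38a1 and Slc38a3, with bars for mean ± SD. Points of Got2 1417715_a_at at the bottom of the axis lie at the floor of 0.01 (1 P6 cell and 3 P30 cells), and both probe sets of Slc38a1 have their highest cells at P30.

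Glul encodes glutamine synthetase, the enzyme that forms glutamine and a classical marker of astroglia. Its 2 probe sets disagreed at P30. In 1426236_a_at the ratios were 1, 0.966, 1.26, 1.23 and 0.849 at P6 and 1.04, 0.929, 1.5, 1.48 and 0.744 at P30. The P6 range lay inside the P30 range, and the difference was -0.07 with a pooled SD of 0.35.

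In Glul 1426235_a_at the P6 ratios were 0.97, 1.06, 1, 1.12 and 0.683. The P30 ratios were 0.226, 1.24, 0.0933, 1.47 and 0.162. Adult cells thus fell into 2 kinds in this probe set: replicates 2 and 4 lay above all P6 cells, and replicates 1, 3 and 5 lay below all of them. The difference of 1.40 (2.63-fold higher at P6) came with an SD of 0.28 among P6 cells but 1.79 among adult cells, and the same 5 adult cells showed no such division in 1426236_a_at. Over the 10 cells the probe sets of Glul had a Pearson r of 0.06.

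Glud1, the mitochondrial glutamate dehydrogenase that interconverts glutamate and 2-oxoglutarate, was somewhat higher at P30 in both of its probe sets. In 1448253_at the P6 ratios were 0.938, 1.24, 1, 1.08 and 0.744, and the P30 ratios were 1.41, 1.47, 1.37, 1.36 and 0.78. Here too 4 adult cells lay above all P6 cells, and P30 replicate 5 lay near the bottom of the P6 range. The P30 mean was 1.26-fold the P6 mean. In 1416209_at the ratios ran from 0.382 to 1.33 at P6 and from 0.808 to 2.24 at P30, which is 1.79-fold, again with P30 replicate 5 lowest of its age. The probe sets of Glud1 moved together over the cells (r = 0.75), and the gene was higher at P30 under each alternative, with differences from -0.79 to -0.31.

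Got1, the cytosolic aspartate aminotransferase, has 1 probe set here. Its ratios were 2.61, 0.692, 1.29, 1 and 0.462 at P6 and 2.63, 0.0342, 0.814, 0.0458 and 0.0186 at P30. Adult replicates 2, 4 and 5 lay below every P6 cell, while P30 replicates 1 and 3 lay within the P6 range or just above it. The geometric mean at P6 was 7.04-fold that at P30. This fold rests on the low adult cells: the difference was 2.81 on the log2 scale, 1.79 with a floor of 0.1 and 0.77 with arithmetic means, where it was under 3-fold. With 1 adult cell left out it ran from 2.08 without P30 replicate 5 to 3.86 without P30 replicate 1.

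Got2, the mitochondrial aspartate aminotransferase, gave 4 probe sets without a common direction. The difference was positive in 1417715_a_at (3.15) and 1417716_at (0.74) and negative in 1430397_at (-0.25) and 1447768_at (-0.91). In 1417715_a_at, the P6 ratios were 0.176, 0.01, 2.03, 1.1 and 1, and the P30 ratios were 0.01, 0.01, 1.43, 0.01 and 0.0494. Because 1 P6 cell and 3 P30 cells lay at the floor of 0.01, the fold of 8.90 is no bound in either direction, and the difference was 1.62 with a floor of 0.1 and 6.64 between medians. It was 4.42 without P6 replicate 2, 2.50 without P6 replicate 3 and 4.47 without P30 replicate 3. In the other 3 probe sets the ages overlapped, and the largest spread was that of 1447768_at, from 0.119 to 1.34 at P6 and from 0.179 to 4.71 at P30, where the difference was -0.17 without P30 replicate 3. As a gene, Got2 was higher at P6 by 0.69 with a pooled SD of 0.94.

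Slc38a1 encodes a sodium-coupled transporter that takes up glutamine and other neutral amino acids and is best known from neurons. Of the 8 member genes it alone had the ages apart as a gene, and both of its probe sets were higher at P30. In 1454764_s_at the P6 ratios were 1, 2.75, 1.2, 0.766 and 0.613, and the P30 ratios were 3.32, 3.85, 6.78, 6.36 and 1.03. The first 4 adult cells exceeded every P6 cell, and P30 replicate 5 lay within the P6 range. The P30 mean was 3.26-fold the P6 mean, with log2 means of 0.13 ± 0.83 and 1.83 ± 1.09 (SD, n = 5 cells each).

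In Slc38a1 1415903_at the P6 ratios were 0.817, 0.765, 3.55, 1 and 1.28. The P30 ratios were 6.15, 1.34, 13.2, 0.976 and 5.06, of which those of replicates 1, 3 and 5 were above all P6 cells. This probe set was 2.85-fold higher at P30. The mean of both probe sets lay between -0.19 and 1.04 in P6 cells and between 1.18 and 3.24 in P30 cells, so the ages were apart by a narrow gap between P6 replicate 3 and P30 replicate 2. The gene difference of -1.61 (3.05-fold) lies close to the 3-fold limit and ranged from -1.82 to -1.25 over the alternatives tried, among them -1.33 with the hybridisation controls and -1.51 without P6 replicate 5. As a gene, Slc38a1 no longer had the ages apart with the hybridisation controls, where P6 replicate 3 (0.98) lay above P30 replicate 2 (0.72), nor with 1415903_at alone once 1454764_s_at was removed. Over the cells the probe sets correlated weakly (r = 0.30).

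Slc38a3, the transporter through which astroglia release glutamine, differed between ages by less than its spread (gene difference 0.23, pooled SD 0.98). In 1418706_at the ratios were 0.286, 1.25, 1.03, 1 and 0.602 at P6 and 1.29, 0.197, 0.733, 0.37 and 0.244 at P30. Adult replicates 2 and 5 lay below all P6 cells and P30 replicate 1 above them. In 1446013_at, P6 replicate 2 had a ratio of 5.64 and P30 replicate 4 of 12.5, while the other 8 cells lay between 0.581 and 1.18, and the difference of -0.29 was 0.49 without the latter cell.

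**Figure D3:**
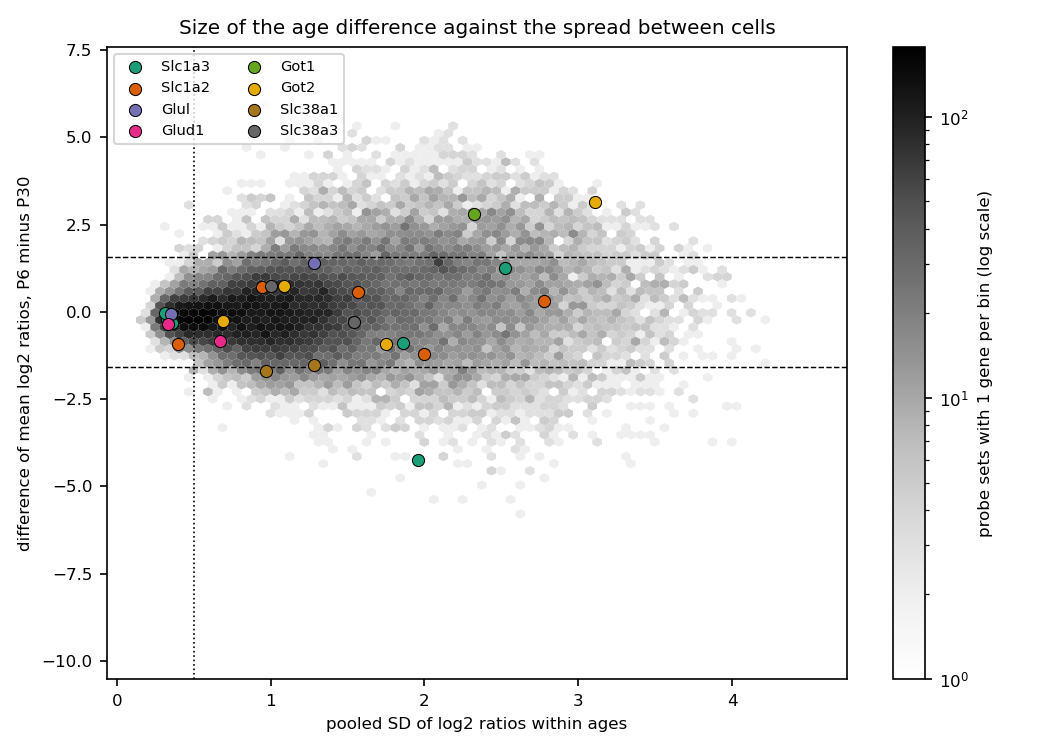
The horizontal axis is the pooled SD of log2 ratios between cells of the same age and the vertical axis the mean log2 ratio at P6 less that at P30, with all 33964 probe sets in grey (log scale of the number per bin) and the 24 member probe sets as coloured points. Dashed lines mark 3-fold and the dotted line a pooled SD of 0.5, left of which 6 member probe sets lie, all with a difference between -0.91 and -0.02.

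The member probe sets fell into a narrow and a wide kind. In 6 of the 24 (25.0%) the pooled SD was under 0.5, beside 7.74% of all probe sets, and the limit of 0.5 was chosen after the values were seen. These 6 were Slc1a3 1426340_at, 1443749_x_at and 1452031_at, Slc1a2 1438194_at, Glul 1426236_a_at and Glud1 1448253_at, and between 1.13% and 3.55% of all probe sets had a smaller SD than they did. Their median difference was -0.26 and each was higher at P30, by at most 1.88-fold. Of all 2628 probe sets with so narrow a spread, 1668 were higher at P30, with a median of -0.13. In the 18 wide probe sets the differences went both ways, 9 in each direction, with a median of 0.04, and each of the 4 probe sets over 3-fold was among them. Of the 6 narrow probe sets, 3 belong to Slc1a3. At the level of genes, 1 of the 8 members (12.5%) had a pooled SD under 0.5, beside 9.45% of all genes. So did 8 of 21 astroglial, 3 of 5 inhibitory interneuron, 2 of 12 neuronal, 2 of 11 oligodendrocyte and 2 of 11 microglial marker genes. No Purkinje, granule neuron or endothelial and pericyte gene did.

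The narrow probe sets, which belong to 4 genes, varied together from cell to cell. Of their 15 pairs, 14 had a Pearson r over 0.5 over the 10 cells (range 0.28 to 0.96, median 0.79). Of the 35 pairs of probe sets that belong to the same gene, 5 had an r over 0.5 and 15 were below 0, with a median of 0.06. Pairs among the 3 narrow Slc1a3 probe sets are counted in both sets. Narrow pairs across genes ran from 0.28 to 0.96. The r between narrow probe sets outside the members was not computed, so no share over all probe sets stands beside these counts. All 10 cells share their array with every probe set in such a pair, so a factor of the array enters each r, and no p is given. In Slc1a3 the 3 narrow probe sets correlated with each other at 0.89 to 0.95, and 1426341_at correlated with 1439072_at at 0.67 but with the narrow ones between -0.19 and 0.23.

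Along the cells, P30 replicate 5 was the lowest of its age in 6 of the 6 narrow probe sets, and P6 replicate 5 in 5 of 6. The share of all probe sets that were lowest in these cells was not computed. Over all probe sets the median deviation was -0.35 in P30 replicate 5 and -0.20 in P6 replicate 5. The 18 hybridisation control probe sets, which report labelled bacterial and phage transcripts added to the hybridisation, were also low in both cells. Their mean log2 ratio was -0.47 in P6 replicate 5 and -0.41 in P30 replicate 5, between -0.06 and 0.14 in the other P6 cells and between 0.28 and 0.46 in the other P30 cells. Scaling the arrays to these controls left P6 replicate 5 the lowest of its age in 0 and P30 replicate 5 in 2 of the 6 narrow probe sets, and 3 of 6 were then higher at P30. After median scaling, P6 replicate 5 and P30 replicate 5 were each the lowest in 5 of the 6, and 6 of 6 were higher at P30. Median scaling shifted the differences of all probe sets by a median of -0.16 and the hybridisation controls by 0.28, and of all 24 member probe sets 15 and 11 were then higher at P30. The part of the array or of the cell in the low ratios of replicate 5 was not tested.

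**Figure D4:**
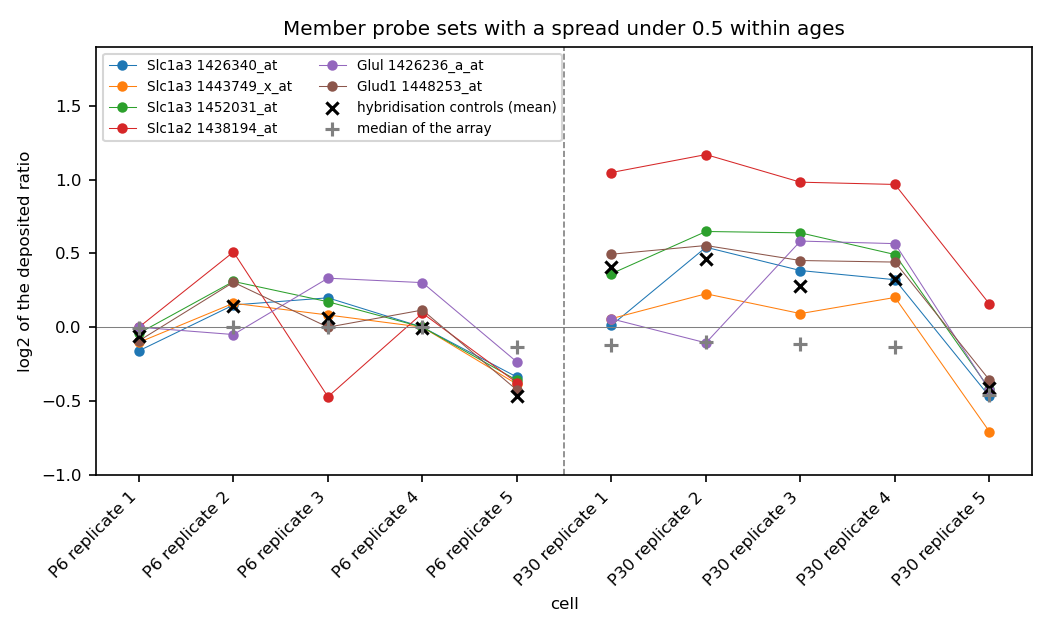
The log2 of the deposited ratio is plotted for each of the 10 cells (horizontal axis, the dashed line separates the ages) for the 6 member probe sets with a pooled SD under 0.5, with the mean of the hybridisation controls as crosses and the array median as plus signs. Replicate 5 is low at both ages in the member probe sets and in the controls, and Slc1a2 1438194_at lies highest in P30 replicates 1 to 4.

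Leaving out P30 replicate 5 separated the ages in 5 member probe sets, each higher at P30: 1416209_at and 1448253_at of Glud1, 1438194_at of Slc1a2, 1452031_at of Slc1a3 and 1454764_s_at of Slc38a1. With 9 cells, 5.97% of all probe sets had the ages apart and 3.28% had them apart with P30 higher. Without replicate 5 of both ages the number was 6, with Slc1a3 1426341_at added, beside 7.56% of all probe sets (4.0% with P30 higher). Fewer cells make a separation easier for any probe set, which these shares include.

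The neighbouring reactions of glutamate and glutamine metabolism were followed in 40 genes, and other genes of these reactions were not analysed here. Of the 40, 4 were over 3-fold higher at P30 and 5 at P6, beside 4.93% and 9.39% of all genes. The ages were apart in 4, with P30 higher in 2 (1.41% of all genes) and P6 higher in 2 (2.13%). The median difference was -0.03 beside 0.05 over all genes, and 22 of 40 were higher at P30, beside 47.6% of all genes. None of the 5 other SLC1 transporters (Slc1a1, Slc1a4, Slc1a5, Slc1a6 and Slc1a7) was over 3-fold in either direction.

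Enzymes that turn proline into glutamate stood among the genes higher at P30. Prodh, proline dehydrogenase, which catalyses the first step, had ratios of 1.73, 1.46, 0.866, 0.663 and 1 at P6 and 43.0, 66.8, 62.6, 12.1 and 18.4 at P30. Every adult cell exceeded every P6 cell, and the P30 mean was 30.8-fold the P6 mean (log2 means 0.11 ± 0.56 and 5.05 ± 1.10, SD, n = 5 cells each). Prodh stayed between -5.43 and -4.67 over the alternatives tried. Aldh4a1, the mitochondrial enzyme of the second step, was 5.74-fold higher at P30. Its P30 ratios were 4.42, 6.31, 8.71, 1.38 and 1.39, and its P6 ratios 1.62, 0.0499, 0.509, 1.81 and 1, so adult replicates 4 and 5 lay within the P6 range. Its difference of -2.52 was -1.63 without P6 replicate 2, the lowest cell.

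Aldh18a1, which catalyses the first steps from glutamate towards proline, had its mean higher at P6 by 2.63 on the log2 scale (6.19-fold). P30 replicate 4 went against this in all 5 of its probe sets, with ratios from 2.74 to 3.76, while the other 4 adult cells lay at or under 0.36, and 4 adult values were at the floor. The difference of Aldh18a1 was 3.82 without that cell and 0.50 with arithmetic means. Without its _x_at probe sets, which leaves 1415836_at, it was 1.01 and under 3-fold. In 1415836_at, P6 replicate 1 (0.0369) lay below every adult cell. The fold of the P6 mean over the P30 mean therefore rests on 4 low adult cells, is lessened by 1 high one, and comes mainly from the _x_at probe sets.

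The other genes over 3-fold at P30 were the mitochondrial branched-chain aminotransferase Bcat2 and the mitochondrial glutamate carrier Slc25a18. Bcat2 had P6 ratios from 0.857 to 1.52 and P30 ratios from 2.18 to 9.31, so the ages were apart, with a 3.04-fold higher mean at P30. Its difference of -1.61 lies close to the 3-fold limit and fell under it in several alternatives. It was -1.24 without P30 replicate 4, -1.28 between medians and -1.33 with the hybridisation controls. Without P6 replicate 2, 4 or 5, or without P30 replicate 5, it lay between -1.56 and -1.51, also under 3-fold. For Slc25a18 the difference of -1.72 rested on a single low cell, P6 replicate 4 with a ratio of 0.0143, and without it the difference was -0.51.

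At P6, Slc38a2, a glutamine transporter related to Slc38a1, had a 4.75-fold higher mean, opposite in direction to Slc38a1. The mean log2 ratio over its 3 probe sets lay between -0.96 and 0.96 in P6 cells and between -4.11 and -1.57 in P30 cells. As a gene it thus had the ages apart. The ages overlapped in each of the 3 probe sets alone and with the median over them. For Slc38a2, 1 adult value was at the floor. Asns, asparagine synthetase, which uses glutamine as its nitrogen donor, was higher at P6 by 3.58 on the log2 scale and as a gene had the ages apart, although neither of its probe sets did alone. Without its _x_at probe set the ages overlapped, and without P6 replicate 5 the difference was 2.64. Its high ratios were those of P6 replicates 2 and 5, at 14.4 and 28.1 in 1451095_at, against 0.279 to 1 in the other P6 cells and 0.0556 to 0.453 in adult cells. Slc7a11, the cystine-glutamate exchanger, owed its difference of 1.94 in large part to a ratio of 160.9 in P6 replicate 2, and without that cell the difference was 0.92. Slc25a11, the mitochondrial 2-oxoglutarate carrier, was 4.12-fold higher at P6 with overlapping ages, and without P30 replicate 4, which was at the floor, the difference was 1.00.

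**Figure D5:**
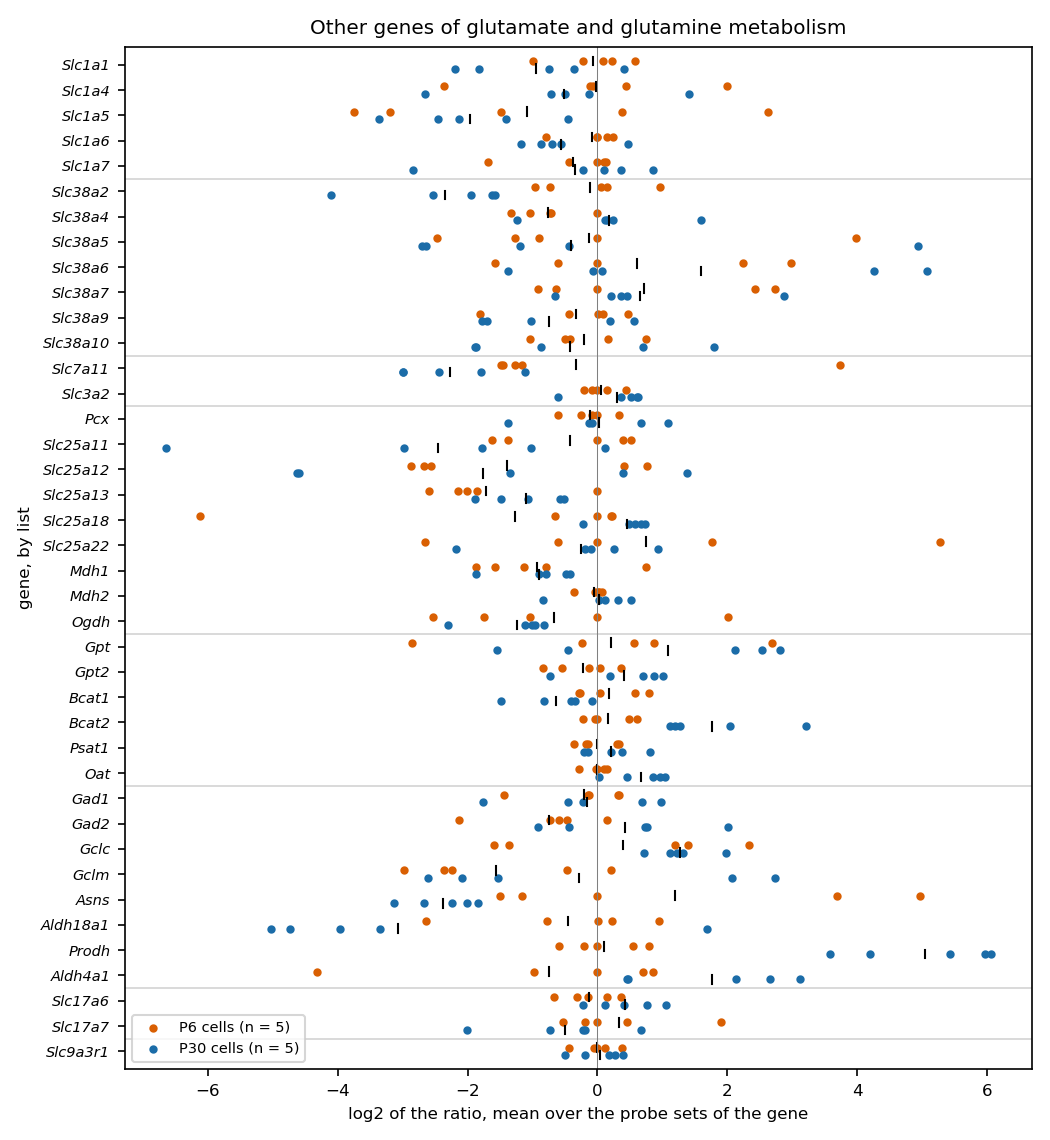
Each point is 1 cell (P6 orange, P30 blue) and each row 1 of the 40 other genes of glutamate and glutamine metabolism, grouped by list, with the log2 of the ratio averaged over the probe sets of the gene on the horizontal axis and black ticks at the mean of each age. Prodh and Bcat2 have all P30 cells right of all P6 cells, and Slc38a2 and Asns have all P30 cells left of them.

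The genes whose course over the 10 cells was most like that of Slc1a3 were Parp12 (Pearson r = 0.96), Fmn1 (0.95) and Zfp11 (0.94), the highest of 16525 genes searched. For Slc1a2 they were Zbtb37 (0.94), C2cd6 (0.93) and Odf2l (0.91), and for Glul they were Nae1 (0.93), Nf2 (0.92) and Men1 (0.91). In each search 6 or 7 genes had an r over 0.9 and 56 to 77 over 0.8. The likeness to Slc1a3 followed its wide probe sets: with the median over probe sets as the value of a gene, r was 0.29 for Parp12, -0.02 for Fmn1 and 0.15 for Zfp11. That of Zbtb37, C2cd6 and Odf2l to Slc1a2 was 0.85, 0.84 and 0.78 without P6 replicate 2. All values in a search come from the same 10 arrays, and the highest of so many correlations over 10 cells is a description of these cells.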

How the data were processed

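Amplified cDNA of 10 single cells was measured on 10 Affymetrix Mouse Genome 430 2.0 arrays. The deposited values are ratios on a linear scale, which the authors made with RMA in GeneSpring GX 7.3 (the version of RMA is not given in the sources used here). They raised smaller values to 0.01, scaled every array to its median and divided every probe set by a median of its own values. The P6 median was 1 in 69.5% of complete probe sets and the median of all 10 cells in 1.47%, so the divisor was in most cases not the median of all cells. No genome build is given in the sources used here, so no coordinates are printed.

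Of 45101 probe sets, 43608 were complete over the 10 cells and 1493 were not (1013 had values in P30 cells only, 480 in none). Gene symbols came from the platform annotation: 34958 probe sets had 1 gene, 932 several and 9211 none. The 10 deposited values of 0 were set to 0.01. Log2 ratios were averaged per age and per gene in Python 3.11.15 with NumPy 2.4.6 and pandas 2.3.3, and figures were drawn with Matplotlib 3.10.9. No test was run, since each age is 1 sample, and the one-way ANOVA of the study was not repeated. Array signal over background was not analysed here, and the number of arrays limits the precision. The steps were tested on simulated data.

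The members and lists were chosen with earlier results of these data known. Named genes are the 8 members with each probe set, other genes of the pathway over 3-fold or with the ages apart, and the 3 genes most like Slc1a3, Slc1a2 and Glul among those with an SD of at least 0.5. Alternatives were median scaling, scaling to hybridisation controls, a floor of 0.1, medians or arithmetic means, the median over probe sets, removal of _x_at and _s_at probe sets, addition of the shared probe set, division by the median of all cells, a limit of 2-fold and each cell left out. Leaving out replicate 5 of both ages was added after seeing the data.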

Additional observations from a re-analysis of the deposited data

Results flagged for a closer look

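In 6 of 48 sets of 5 cells (24 probe sets at 2 ages), 1 cell lay apart from the other 4 of its age, with a gap to its nearest neighbour that took more than 0.71 of the whole range on the log2 scale. For independent, normally distributed values the rule would pick about 1 in 20 sets. These sets share their cells and arrays, so that rate is no yardstick here and the rule only picked sets to look at. Of the 6 cells, 4 were P30 replicate 5 as the lowest adult cell: Glud1 1448253_at (gap 0.877, ratio 0.78), Slc1a3 1443749_x_at (gap 0.82, ratio 0.612), Slc1a2 1438194_at (gap 0.8, ratio 1.11) and Slc1a3 1452031_at (gap 0.732, ratio 0.748). The endothelial and pericyte markers were high and the hybridisation controls low in the same cell, and the part of either was not tested. In Slc38a3 1446013_at, P30 replicate 4 was the highest adult cell (gap 0.831, ratio 12.5). In Got2 1417716_at, P6 replicate 1 was the lowest P6 cell (gap 0.716, ratio 0.327).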

How the results depend on the processing

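No paired analysis was possible because no test was run. The labels do not say that a number ties cells of both ages, and pairing by number would leave each difference of means as it is. No difference called over 3-fold in a member probe set turned its direction under any alternative. Member probe sets over 3-fold higher at P30 (2 as deposited) numbered 1 with the hybridisation controls, 1 without probe sets ending in _x_at or _s_at, 4 at a limit of 2-fold, and 1 to 3 with 1 cell left out (1 without P6 replicate 4 and 1 without P6 replicate 5, Slc1a3 1426341_at in both cases). They numbered 3 with the shared probe set of Slc1a2 added, and also after median scaling, by the difference of medians and with arithmetic means. Those higher at P6 (2 as deposited) numbered 5 by the difference of medians, 4 at a limit of 2-fold and 2 to 3 with 1 cell left out. With arithmetic means they were again 2 but different ones, Slc1a3 1440491_at (1.66) and Slc1a2 1433094_at (2.13). Probe sets with the ages apart (0 as deposited) numbered 1 after median scaling, 2 with the hybridisation controls, 0 to 5 with 1 cell left out (5 without P30 replicate 5, 1 without P6 replicate 2 and 1 without P6 replicate 5) and 6 without replicate 5 of both ages. Of the 2 with the hybridisation controls, Slc1a2 1438194_at was higher at P30 and Slc1a3 1443749_x_at at P6. In the other alternatives each separated probe set was higher at P30. The median over the member probe sets (-0.22) ranged from -0.36 to 0.03 with 1 cell left out, the highest without P30 replicate 4, and the median over the 8 member genes (0.06) from -0.38 without P6 replicate 2 to 0.30. For the 40 other genes the median (-0.03) was 0.23 with the hybridisation controls and -0.24 with arithmetic means, and ranged from -0.24 to 0.05 with 1 cell left out. Their number over 3-fold at P30 (4) was 2 with the hybridisation controls and 2 by the difference of medians. Of all probe sets over 3-fold, 64.0% were higher at P6 as deposited, 56.1% after median scaling and 76.6% with the hybridisation controls. Where a value moved, the cause was not tested. The ratios give no signal over background, so a low ratio cannot be told apart from a transcript near the detection limit.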
